A study of Homo sapiens with 50 samples.

Results

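Hairpins against the writers, recruiting partners and readers of methylated lysine 9 of histone H3 (H3K9) made up 48 of the 3443 hairpins in the table, or 1.39%. They were taken by name, as every hairpin naming a single gene that starts with SUV39H, EHMT or SETDB, or that is CBX1, CBX3, CBX5, TRIM28 or ATF7IP. The 48 hairpins fell on 10 genes: SUV39H1, SUV39H2, EHMT1, EHMT2, SETDB2, ATF7IP, TRIM28 and CBX3 with 5 hairpins each, and CBX1 and CBX5 with 4 each. No hairpin sequence is given, since the files used here name hairpins by clone number. Hairpins of a gene share their target, so they describe how much its reagents differed and are not replicates.

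The cells were IMR90, a human lung fibroblast line with a limited replicative lifespan, grown at 3% oxygen and infected with pooled lentiviruses at a multiplicity of infection of 0.3. The study divided its hairpins among 5 initial pools, combined these by pairs into 10 paired pools on 10 plates, and took genomic DNA at population doublings (PD) 40, 45, 50, 55 and 60. The PD40 cells served as the proliferating baseline and the PD60 cells were senescent, and each hairpin was on 4 plates at every time. How far each hairpin lowered its target is not measured in the table. The screen asked which regulators shorten lifespan, since a hairpin that lowers such a gene should let its cell outgrow the others.

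Methylated H3K9 is the hallmark of constitutive heterochromatin. SUV39H1 and SUV39H2 trimethylate it at pericentromeric repeats, and EHMT1 (GLP) and EHMT2 (G9a) form a dimer that dimethylates it in euchromatin. TRIM28 (KAP1) is brought to DNA by KRAB zinc finger proteins and recruits both HP1 and the methyltransferase SETDB1, of which ATF7IP is a partner. No member hairpin names SETDB1, and SETDB2 was the only SETDB gene among the members. CBX5, CBX1 and CBX3 encode HP1 alpha, beta and gamma, which bind the mark through a chromodomain. Senescent fibroblasts can gather heterochromatin into foci that carry methylated H3K9 and HP1.

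Each time was represented by 1 column of tag counts, pooled by the authors over plates, with 8270745 to 11505688 tags. There was no replicate, so no difference below was tested, and the part played by single plates was not tested. Values are given as counts per 1000000 tags of the column (CPM). Intervals in parentheses are exact 95% Poisson intervals of a ratio to PD40, and cover counting error only. A hairpin is called higher or lower when it passed 2-fold on the scale of log2(CPM + 1), and all 48 members had at least 10 tags at PD40. The hairpins outside the 50 most abundant at PD60 held 836692 of 8270745 tags at PD60, against 7701000 of 8626437 at PD40, so "lower" means a smaller share of the column, not fewer cells.

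At PD60 the members were near the rest of the library in how often they were higher or lower. Their share of all tags was 2.17%, 1.90%, 1.39%, 0.894% and 0.325% in the order of the 5 times. At PD60 1 of 48 was over 2-fold higher than at PD40, against 2.28% of all hairpins tested, and 45 were over 2-fold lower, against 95.3%. The hairpin that was higher targeted SUV39H2. The median log2 fold change of the members was -6.13, against -5.86 over all hairpins. With counts under 3 raised to a floor of 3 per column, which touched 22 members, these medians were -7.40 and -7.12 and are bounds. The shares were thus near the background. TMM scaling leaves out hairpins at 0 in either compared column and those with the most extreme ratios. With it, 13 members were higher and 32 lower, against 18.8% and 64.4% of all hairpins. The median over all hairpins was then -1.84, so TMM did not centre on the middle of the library.

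Lower calls were fewer among the members than in the library at PD45 and PD50. At PD45 3 members (6.25%) were over 2-fold higher, against a background of 5.73%, and 25 (52.1%) over 2-fold lower, against 63.2%. At PD50 3 members (6.25%) were higher, against 4.94%, and 34 (70.8%) lower, against 81.9%. At PD55 2 (4.17%) were higher, against 2.92%, and 43 (89.6%) lower, against 91.7%. The members also started from more tags, with a median of 2020 at PD40, against 1019 over all hairpins. Set against the median of hairpins of like starting abundance, 21 of 48 members were above it at PD45 and 23 at PD50. Of the 48 members, 32 (66.7%) had their highest CPM at PD40, against 80.4% of the library, and 10 (20.8%) had it at PD45, against 12%. Another 3 peaked at PD50 (6.25%, against 3.98%), 3 at PD55 (6.25%, against 1.74%) and 0 at PD60 (0%, against 1.95%). The non-targeting hairpin had 529, 202, 78.9, 11.6 and 4.72 CPM at the 5 times. The number of members with a higher log2 fold change than that hairpin was 22 at PD50 and 26 at each of the other times.

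A few hairpins came to carry the set, while the library narrowed too. The hairpins outside the 50 most abundant at PD60 held 836692 of 8270745 tags then, against 7701000 of 8626437 at PD40. The number of equally abundant hairpins that would have the same Shannon entropy as the members was 28.8, 20.9, 14.9, 8.66 and 5.87 in the order of the times. The 3 most abundant members held 76.8% of member tags at PD60, against 24.2% for the top 3 at PD40. Those 3 at PD60 were hairpins against CBX1, SUV39H2 and CBX5. Among the 50 most abundant hairpins at PD60 there was no member, where members were 1.39% of all hairpins. So few places can hold no member of so small a set. The best placed was the CBX1 hairpin, at rank 71.

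Among the methyltransferases, SUV39H2 had the one hairpin that was over 2-fold higher at all 4 later times. SUV39H2 TRCN0000006938 had 322, 661, 1148, 1240 and 1007 CPM from PD40 through PD60. Its share was thus larger at each step up to PD55 and slightly smaller at PD60. The ratio to PD40 was 2.06 (1.96 to 2.15) at PD45, 3.57 (3.42 to 3.72) at PD50, 3.85 (3.70 to 4.01) at PD55 and 3.13 (3.00 to 3.27) at PD60. Its rank in the library was 78 at PD60, against 741 at PD40.

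The other 4 SUV39H2 hairpins ended at 0 to 2 tags. TRCN0000011057 first had 52.3, 57.8 and 86.1 CPM up to PD50, then 16.4 at PD55 and 0.121 at PD60. TRCN0000006937 had 175 and 164 CPM at PD40 and PD45, then 10.4, 0.261 and 0. The last pair, TRCN0000006935 and TRCN0000006936, had 6 and 59 tags at PD45, against 192 and 637 at PD40. Together the SUV39H2 hairpins held 0.0645%, 0.0891%, 0.125%, 0.126% and 0.101% of tags at the 5 times, and of their 8333 tags at PD60 8330 belonged to TRCN0000006938. The gene's summed share was 1.56 times that at PD40 (1.51 to 1.62), while the mean log2 fold change over its hairpins was -4.37 (SD 3.56). With each hairpin set against the median hairpin of the library, the mean was 1.49. Without TRCN0000006938 the mean relative to column totals was -5.87, where the library median was -5.86.

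SUV39H1, its paralog, had no hairpin over 2-fold higher at any time. TRCN0000157251 had 1136, 924, 1241, 433 and 98.1 CPM at the 5 times, the order used for every hairpin. TRCN0000158270 had 1379, 1441, 799, 256 and 86.5 CPM. Both stayed within 2-fold of PD40 up to PD50 and were 11.6-fold and 16.0-fold lower at PD60, although with TMM scaling TRCN0000157251 stood at a log2 fold change of 3.30. The remaining 3 were already 5.49-fold to 19.9-fold lower at PD45, and TRCN0000150622 had 7 tags at PD60, against 8725 at PD40, 1195-fold lower. The mean log2 fold change at PD60 was -6.11 (SD 2.33). The hairpins of both SUV39H genes overlapped, at -9.10 to -3.52 for SUV39H1 and -7.46 to 1.64 for SUV39H2.

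The EHMT1 hairpins ended with few tags. All 5 were over 2-fold lower from PD50 onward, near the background of 81.9%, 91.7% and 95.3% at PD50, PD55 and PD60. Their summed tags were 9691, 4566, 823, 82 and 9 from PD40 through PD60, with 0 to 4 tags per hairpin at the end. The summed share at PD60 was 1032-fold lower than at PD40, a ratio of 0.000969 (0.000443 to 0.00184). At PD45 TRCN0000036055 was still above its start, with 48.1 CPM against 34.3 at PD40, while TRCN0000036057 had 232 against 398. The mean log2 fold change at PD60 was -7.14 (SD 1.21), at rank 607 of 631 genes with at least 3 hairpins. The median of those gene means was -5.59 and their quartiles were -6.19 and -4.86.

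EHMT2, the partner of EHMT1, had 2 hairpins that still held 54 and 43 tags at PD60. TRCN0000115669 had 172, 116, 61.2, 32.8 and 6.53 CPM, and TRCN0000115671 had 145, 156, 95.9, 40.2 and 5.20 CPM. They were 26.3-fold and 27.8-fold lower at PD60. The other 3, TRCN0000115668, TRCN0000115667 and TRCN0000115670, had 0, 0 and 1 tags at PD60, against 132, 281 and 1418 at PD40. The mean log2 fold change was -5.07 (SD 1.25), at rank 203, although set against the median hairpin it was 0.78. From their low starts TRCN0000115668 and TRCN0000115667 could fall no further than -4.03 and -5.07. The mean, its rank and the 0.78 are bounded by this. TRCN0000115668, with 132 tags at PD40 and 0 at PD60, has only a bound. It was at least 42.2-fold lower against a floor of 3 tags in the column. The upper limit of its interval was a ratio of 0.0296. With counts under 3 raised to 3, the mean log2 ratio was -6.05 for EHMT2 and -8.77 for EHMT1, both bounds.

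SETDB2 encodes a further SET-domain protein with reported H3K9 methyltransferase activity, and its 5 hairpins all lay among the most abundant of the library, with 5729 to 17959 tags at PD40. TRCN0000160242 stayed within 2-fold of PD40 up to PD55, with 2082, 1510, 1911, 1678 and 244 CPM. TRCN0000159493 had 1427, 1645, 936, 581 and 84.6 CPM. Between PD55 and PD60 TRCN0000160242 changed by -2.78 and TRCN0000159493 by -2.77 on the log2 scale, a larger step down than in any interval before. The other 3 were lower than at PD40 at every later time, and TRCN0000158918 had 9 tags at PD60, against 13965 at PD40, 1488-fold lower. With a pseudocount of 1 CPM it had the lowest log2 fold change of all members, -9.60. With 0.5 CPM ATF7IP TRCN0000020825 was lower, at -10.20 against -9.99. The gene mean was -6.38 (SD 2.79) relative to column totals but 0.06 with TMM scaling.

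The hairpins against the recruiting partners all had smaller shares from PD50 onward. All 10 against ATF7IP and TRIM28 were over 2-fold lower at PD50, PD55 and PD60, against 81.9%, 91.7% and 95.3% of all hairpins, and 7 were so at PD45, against 63.2%. These counts were near the background. Their summed tags were 25881, 17030, 5111, 1253 and 53 from PD40 through PD60, so their share at PD60 was 468-fold lower. At PD60 1 of 10 was above the median of hairpins that started in the same range of abundance, by 0.01, and the median difference from it was -0.37.

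For ATF7IP the hairpin with the most tags at PD40, TRCN0000020826, had 753, 363, 113, 18.7 and 1.33 CPM. TRCN0000020827 had 569, 510, 123, 20.7 and 2.06 CPM. TRCN0000020825 had 0 tags at PD60, against 5079 at PD40, at least 1623-fold lower against a floor of 3 tags in the column. The highest log2 fold change of the gene, that of TRCN0000020828, was also one of 0 tags at PD60, against 452 at PD40. The mean log2 fold change was -7.34 (SD 1.52), at rank 616 of 631. Which of the 10 genes was lowest depended on the setting: ATF7IP was with a pseudocount of 1 CPM, but EHMT1 was with counts under 3 raised to 3 (-8.77, against -8.48 for ATF7IP) and SETDB2 with a pseudocount of 10 CPM (-5.15, against -4.59). For TRIM28, TRCN0000017999 had 559, 714, 259, 57.0 and 2.18 CPM, so it was above its start at PD45 and 257-fold lower at PD60. TRCN0000018000 had 260, 135, 71.9, 9.73 and 0.725 CPM. The 3 TRIM28 hairpins with 247 to 577 tags at PD40, TRCN0000018001 among them, had 36 to 65 tags at PD45 and 0 or 1 at PD60. The TRIM28 mean was -6.31 (SD 1.05), at rank 505.

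The 13 hairpins against HP1 genes together held a larger share of the library at PD45 than at PD40, but the 3 genes differed. The summed share at PD45 was 1.67 times that at PD40 for CBX3, 1.41 times for CBX5 and 0.79 times for CBX1. CBX3 hairpins held 49377 of the 72532 tags of the HP1 hairpins at PD45. They made up 0.378% of hairpins and held 0.588%, 0.826%, 0.660%, 0.450% and 0.170% of tags from PD40 through PD60. At PD45 their median log2 fold change was 0.10, against -1.63 over all hairpins, and at PD50 it was -0.64, against -3.46. At PD60 the median was -5.78, against -5.86, so the distance was no longer there. Starting abundance moved with this result: 7 of the 13 lay in the most abundant of 5 equal bins of PD40 tags, whose median was -0.43 at PD45. Relative to the median of its own bin, 8, 9, 6 and 7 of 13 hairpins were above from PD45 through PD60, with median differences of 0.53, 0.85, -0.11 and 0.12. At PD45 4 of 5 CBX3 hairpins were above, with a median difference of 1.27. For CBX1 and for CBX5 it was 2 of 4, with a median difference of -0.05 each.

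CBX3, which encodes HP1 gamma, had 4 of 5 hairpins above their start at PD45. TRCN0000021918 had 1557, 2786, 1448, 484 and 124 CPM at the 5 times. TRCN0000021916 had 882, 1609, 567, 58.1 and 6.53 CPM. TRCN0000021914 had 460, 560, 329, 57.6 and 11.6 CPM. All 3 peaked at PD45, with ratios of 1.79 (1.75 to 1.83), 1.82 (1.77 to 1.88) and 1.22 (1.17 to 1.27), under the 2-fold call.

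TRCN0000021915, the CBX3 hairpin that passed it, had 322, 660, 838, 181 and 57.0 CPM, with ratios of 2.05 (1.96 to 2.15) at PD45 and 2.61 (2.49 to 2.72) at PD50. The fifth, TRCN0000021917, was 20.3-fold lower at PD45. With 0 tags at PD60 it was at least 377-fold lower against a floor of 3 tags, with an upper interval limit of 0.00327. The gene's mean log2 fold change was -0.23 (SD 2.22) at PD45, at rank 31 of 631, and -1.15 (SD 2.78) at PD50, at rank 26. At PD60 it was -5.06 (SD 2.01), at rank 199, although it was 0.95 with TMM scaling and 0.80 against the median hairpin. The summed share of CBX3 was 1.67 times that at PD40 (1.65 to 1.70) at PD45 and 16.8-fold lower at PD60.

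CBX5, which encodes HP1 alpha, had the hairpin with the highest ratio of the set. TRCN0000062240 had 435, 982, 2289, 2317 and 332 CPM. It stood 2.26 times (2.17 to 2.34), 5.26 times (5.08 to 5.45) and 5.32 times (5.14 to 5.51) its PD40 level at PD45, PD50 and PD55, and 0.762 times (0.725 to 0.800) at PD60. That last value, -0.39 on the log2 scale, turned to 6.42 with TMM scaling, 2.75 without the 50 most abundant hairpins, 5.47 against the median hairpin and 0.90 with PD55 and PD60 averaged against PD40 and PD45. Its rank was 535, 211, 75, 62 and 133. At PD55 it held 25.9% of all member tags. The other 3 CBX5 hairpins did not follow it. TRCN0000062239 had 420, 468, 201, 16.6 and 0.725 CPM, and TRCN0000062238 and TRCN0000062241 were 6.58-fold and 10.5-fold lower by PD45. The mean at PD60 was -5.24 (SD 3.35), although it was 0.62 against the median hairpin. Without TRCN0000062240 the mean relative to column totals was -6.85.

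CBX1, which encodes HP1 beta, had 1 hairpin that ended above its start. TRCN0000062223 had 683, 528, 487, 1330 and 1160 CPM, so it was below its start at PD45 and PD50 and above it at PD55 and PD60. Its ratio was 1.95 (1.89 to 2.01) at PD55 and 1.70 (1.64 to 1.75) at PD60, under the 2-fold call at both. The call at PD60 was gained under other settings, since its log2 fold change of 0.76 became 7.59 with TMM scaling, 3.90 without the 50 most abundant hairpins, 6.62 against the median hairpin and 1.04 with the late and early times averaged. With 9591 tags it was the most abundant member at PD60. TRCN0000062225 had 551, 592, 419, 55.3 and 10.9 CPM, and the other 2, TRCN0000062227 and TRCN0000062224, had 0 tags at PD60, against 772 and 1241 at PD40. The mean at PD60 was -4.61 (SD 3.65) relative to column totals, 0.30 with TMM scaling and 1.25 against the median hairpin. Without TRCN0000062223 the mean relative to column totals was -6.41.

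The intervals between neighbouring times separate these courses. At PD50, 1 of 46 members with at least 10 tags at either time was over 2-fold higher than at PD45, against 2.22% of hairpins, namely CBX5 TRCN0000062240, and 31 were over 2-fold lower, against 71.4%. At PD55, 1 of 41 was over 2-fold higher than at PD50, against 1.70%, namely CBX1 TRCN0000062223, and 31 were over 2-fold lower, against 80.8%. At PD60 0 of 29 were over 2-fold higher than at PD55, against 5.40%, and 24 were over 2-fold lower, against 73.2%. The highest log2 change of that interval was -0.20, so every one of the 29 had a smaller share at PD60 than at PD55, the 3 abundant hairpins against SUV39H2, CBX1 and CBX5 included.

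Hairpins with few tags at PD40 were more often at 0 tags at PD60, within the set as in the library. A low start reaches 0 after a smaller fall, so this outcome depends on the starting count. In the least abundant bin, with up to 323 tags at PD40, 4 of 5 members were at 0 tags at PD60, against 84.5% of hairpins in the bin. The median log2 fold change of members there was -4.89, against -4.42 over the bin, and a low start bounds how far it can fall. In the most abundant bin, from 2998 tags, 1 of 21 members was at 0, against 1.45%. In that bin 0 of 21 members were over 2-fold higher at PD60, against 6.24%, and their median log2 fold change was -6.87, against -6.24. Over all bins 19 of 48 members were above the median of their own bin at PD60 and 19 at PD55.

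Genes that act on the mark from the other side, or on heterochromatin more widely, gave similar values at PD60. For the H3K9 demethylases 10 genes with 49 hairpins were found under 19 current and older names, of which 2 hairpins were over 2-fold higher, against 2.28% of all hairpins, and 46 over 2-fold lower, against 95.3%, with a median log2 fold change of -5.86. The highest means were those of AOF2 (-2.08, SD 5.43, both of the higher hairpins) and JMJD2A (-4.86, SD 2.63). AOF2 is an older name of LSD1, a demethylase known chiefly for H3K4, so its place among H3K9 demethylases is a loose one. The lowest were JMJD1A (-7.17, SD 1.14) and JMJD2D (-7.23, SD 1.89). JMJD2A and JMJD2D are demethylases of the trimethylated mark and JMJD1A of its lower states.

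The list of chromodomain proteins, chaperones and other heterochromatin genes held 23 genes with 116 hairpins, of which 1 was over 2-fold higher at PD60, against 2.28%, and 111 over 2-fold lower, against 95.3%. The higher one targeted TRIM24, named here after its values were seen. Their median was -5.78 at PD60 and -2.26 at PD45, where that of all hairpins was -1.63. HELLS, a remodeller needed for DNA methylation of repeats (-3.54, SD 2.01), and DAXX, a chaperone of histone H3.3 (-4.09, SD 2.94), had the highest means. LBR, an inner nuclear membrane receptor that binds HP1 (-6.90, SD 0.23), and SUV420H2, which methylates H4K20 in heterochromatin (-6.98, SD 0.73), had the lowest.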

How the data were processed

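Per the labels' protocols, hairpin regions were amplified from genomic DNA and cut with XhoI before sequencing. The authors deposited raw counts of tags per hairpin, as the file header calls them, with a single column for each time. The submitters' processing notes name Bowtie 1.0.1. Its settings, and how the 10 plates of a time were combined, were not given in the sources used here. The design text gives 3455 hairpins for 717 genes; the table has 3443.

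Counts were scaled by column totals. Fold changes used a pseudocount of 1 CPM and hairpins with at least 10 tags at either time. Exact Poisson and Clopper-Pearson intervals (95%) came from scipy 1.17.1 in Python 3.11.15, and TMM factors from edgeR 4.0.16 in R 4.3.3. PCR tags without molecular identifiers make every interval one of counting error. Calculations were tested on simulated data in which few hairpins changed. In the data 95.3% were over 2-fold lower at PD60, so the simulation did not cover scaling by column totals under such a shift. A test across columns was not run: they are successive samples of the same passaged plates, with no replicate.

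Members, lists and alternatives were chosen with earlier results of these data known. Named in full are, for each gene, its highest and lowest hairpin at PD60 and any hairpin over 2-fold higher; others were added after their values were seen. Of each list, the 2 highest and 2 lowest gene means are named. All 10 gene symbols are current in RefSeq GRCh38.p14.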

Additional observations from a re-analysis of the deposited data

How the results depend on the processing

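Limits first: columns are pooled, so the spread between cultures is unmeasured, and a hairpin near 0 tags has only a bound. No paired analysis was possible because the 10 plates of a time share a column. Column totals fix the direction of most values. The median log2 fold change at PD60 over all hairpins was -5.86 with column totals, -1.84 with TMM, -5.08 without the 50 hairpins most abundant at PD60, and 0 by construction when the median hairpin is the base, a choice made after the data were seen. Call counts and gene means stayed within 1.5 times or 1 SD of the reported values with pseudocount 0.5. Dropping the count minimum, or asking for at least 100 tags at PD40, could not change a member value. All 48 members had at least 100 tags at PD40. For the 10 gene means, taking the median or leaving out a gene's highest hairpin cannot move the value past 1 SD. That limit therefore could not test them. The largest moves without the highest hairpin were from -4.61 to -6.41 for CBX1, -5.24 to -6.85 for CBX5 and -4.37 to -5.87 for SUV39H2. The cause of the changes below was not tested beyond this.

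With TMM, members over 2-fold higher numbered 16, 18, 16 and 13 at PD45, PD50, PD55 and PD60 (19.8%, 25.6%, 23.6% and 18.8% of all hairpins), and 25 were lower at PD55 (54.8%). TMM means at PD60 were -0.49 for SUV39H1, -0.06 for SUV39H2, -2.86 for EHMT1, -0.50 for EHMT2, 0.06 for SETDB2, -3.04 for ATF7IP, -1.90 for TRIM28, 0.30 for CBX1, 0.95 for CBX3 and -0.16 for CBX5. Single hairpins turned to 3.30 (SUV39H1 TRCN0000157251), 3.75 (SETDB2 TRCN0000160242), 4.31 (CBX3 TRCN0000021915) and 6.42 (CBX5 TRCN0000062240). The TMM factors were 8.94 at PD40 and 0.0777 at PD60. The pseudocount of 1 CPM was added after this scaling, so TMM did not shift all hairpins alike.

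Against the median hairpin, 20, 20, 16 and 13 were higher (29.2%, 35.6%, 30.9% and 28.6% of all hairpins) and 15, 18, 18 and 20 lower (30.4%, 31.6%, 26.2% and 26.2%) at the 4 later times. Means were -0.25 for SUV39H1, 1.49 for SUV39H2, -1.28 for EHMT1, 0.78 for EHMT2, -0.52 for SETDB2, -1.48 for ATF7IP, -0.45 for TRIM28, 1.25 for CBX1, 0.80 for CBX3 and 0.62 for CBX5. The hairpins of SUV39H1, SETDB2, CBX3 and CBX5 just named were at 2.34, 2.77, 3.38 and 5.47. EHMT1 TRCN0000036055 was at 0.72, EHMT2 TRCN0000115668 at 1.83, ATF7IP TRCN0000020828 at 0.12 and TRIM28 TRCN0000018001 at 0.97. These last 4 had 0 tags at PD60, so their positive values reflect a low start and the pseudocount, not survival. Against the median of their own abundance bin they stood at -0.72, 0.39, 0.01 and -0.47.

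Without the 50 most abundant hairpins 5, 4 and 3 members were higher at PD45, PD55 and PD60 (7.78%, 6.9% and 6.64% of all hairpins). SUV39H1, EHMT2, SETDB2 and CBX3 then had means of -4.06, -3.80, -3.63 and -2.64, and SETDB2 TRCN0000160242, CBX3 TRCN0000021915 and CBX5 TRCN0000062240 were at 0.05, 0.64 and 2.75. The members' share of tags was 2.43%, 2.52%, 2.56%, 3.22% and 3.22% at the 5 times. Without the member with most tags it was 1.96%, 1.62%, 1.16%, 0.662% and 0.209%. A pseudocount of 10 gave means of -4.16 for EHMT1, -2.87 for EHMT2, -4.59 for ATF7IP, -3.59 for TRIM28, -1.99 for SUV39H2, -2.81 for CBX1 and -3.07 for CBX5. With PD55 and PD60 averaged against PD40 and PD45, 2 members were higher (2.46% of all hairpins), EHMT1, EHMT2, ATF7IP and TRIM28 had means of -6.25, -3.82, -5.65 and -4.74, and CBX5 TRCN0000062240 was at 0.90.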
